A study of Mus musculus with 8 samples.

Results

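The interleukin 1 (IL-1) family comprises secreted cytokines, the receptors that bind them, and proteins that block them. Messenger RNA of 10 of its genes was followed here in neutrophils taken from mouse lungs with and without pneumonia. They are the ligands Il1a, Il1b, Il18 and Il36g, the antagonists Il1rn and Il18bp, the receptor chains Il1r1, Il1rap and Il18rap, and the decoy receptor Il1r2. The genes were chosen by name. All 10 of the 10 had a row among the 24625 rows of the deposited table, each had 1 row only, and that row stood for the gene.

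Wild type mice aged 6 to 12 weeks received phosphate-buffered saline (PBS, 4 samples) or Streptococcus pneumoniae (SP, 4 samples), the bacterium most often behind community-acquired pneumonia. Either was given through the trachea to the left lung (2.3 µl for each g that the mouse weighed), and the lungs were taken 24 h later. Lung cell suspensions were labelled with an antibody against Ly6G, a neutrophil surface protein, and the labelled cells were held back on a magnetic column, so both groups had the same anesthesia, instillation, digestion and staining. Each sample was measured on its own Affymetrix Mouse Gene 1.1 ST array, and precision is limited by their number. The labels number the replicates and do not say whether each came from a separate mouse, so p-values measure the spread between these samples. A lung digest holds other cells too, and in such bulk samples fewer cells of a type and less RNA per cell cannot be told apart.

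Cytokines of this family are made mostly by cells that meet microbes or are damaged, and they act on receptors whose inner domain resembles that of Toll-like receptors. IL-1α (Il1a) and IL-1β (Il1b) bind the same receptor, IL1R1, which then recruits the accessory chain IL1RAP and signals through MYD88, IRAK kinases and TRAF6 to NF-κB. Their action is held in check by the receptor antagonist IL1RN, which occupies the receptor without recruiting the accessory chain, and by the decoy receptor IL1R2, which binds ligand and does not signal. IL-18 acts through IL18R1 and IL18RAP and is neutralised by IL18BP, while IL-36γ (Il36g) acts through IL1RL2 and IL1RAP. IL-1β and IL-18 are made as inactive precursors that caspase-1 cuts in the inflammasome, so messenger RNA does not show how much active cytokine was present.

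Il1a, Il1b and Il1rn lie on mouse chromosome 2, and the 150 bases before the start site of each are printed because these 3 genes, 2 agonists and their antagonist, gave the most unequal changes described later. They are from RefSeq on GRCm38.p6. Il1a is at chr2:129309973-129310122 on the minus strand, Il1b at chr2:129371140-129371289 on the minus strand, and Il1rn at chr2:24336710-24336859 on the plus strand, before the first of its 3 start sites. Capitals mark TATAAA, the TATA box, and TGANTCA, the letters recognised by AP-1 factors.
Il1a: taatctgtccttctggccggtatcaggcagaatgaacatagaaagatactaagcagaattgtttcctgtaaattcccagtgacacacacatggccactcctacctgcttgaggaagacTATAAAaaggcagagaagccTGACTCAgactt
Il1b: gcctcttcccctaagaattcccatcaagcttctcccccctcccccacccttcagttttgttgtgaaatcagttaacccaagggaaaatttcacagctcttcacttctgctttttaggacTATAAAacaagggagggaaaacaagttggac
Il1rn: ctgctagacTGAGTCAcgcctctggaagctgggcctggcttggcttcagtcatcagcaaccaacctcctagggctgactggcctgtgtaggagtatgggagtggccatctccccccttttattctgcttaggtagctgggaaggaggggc

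Il1a and Il1b each hold a TATA box just before the start, at bases 32 to 27 and 31 to 26, and Il1a alone of the pair also holds the AP-1 letters, at bases 12 to 6. The letters in Il1rn lie farther out, at bases 141 to 135. All 10 genes had a window, 13 windows in all because some have several starts, and 250 bases before each start were searched on both strands, without overlap between motifs. TATAAA was found in 3 of the 13 windows, against 12.4% of 32851 windows of all genes, and the third was that of Il18, on the opposite strand. TGANTCA was found in 2 of 13 against 6.75%, and the kappa-B consensus in 1 of 13, before a start of Il1r1, against 7.25%. These are matches of letters in a short window and not shown sites.

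The question was how the transcripts of agonists, inhibitors and receptors differed between neutrophils of infected and uninfected lungs. Rows were tested with limma, a linear model with moderated variances, and a row was called where its p, adjusted over all rows, did not exceed 0.05. Of the 10 genes, 6 were called higher in SP and none was called lower. Of all rows, 44.1% passed that threshold and 21.5% passed it with a higher value in SP. Differences of at least 2-fold, which is 1 log2 unit, were seen for 5 of the 10, all higher, against 17.6% of all rows in either direction and 6.37% higher. SP and PBS did not overlap, with SP on top, for 6 of the 10, against 27.2% of all rows. The median difference of the 10 was 1.02 log2 units, and that of all rows was 0.10. As the genes were picked with results of these data in view, these shares describe them only.

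**Figure D1:**
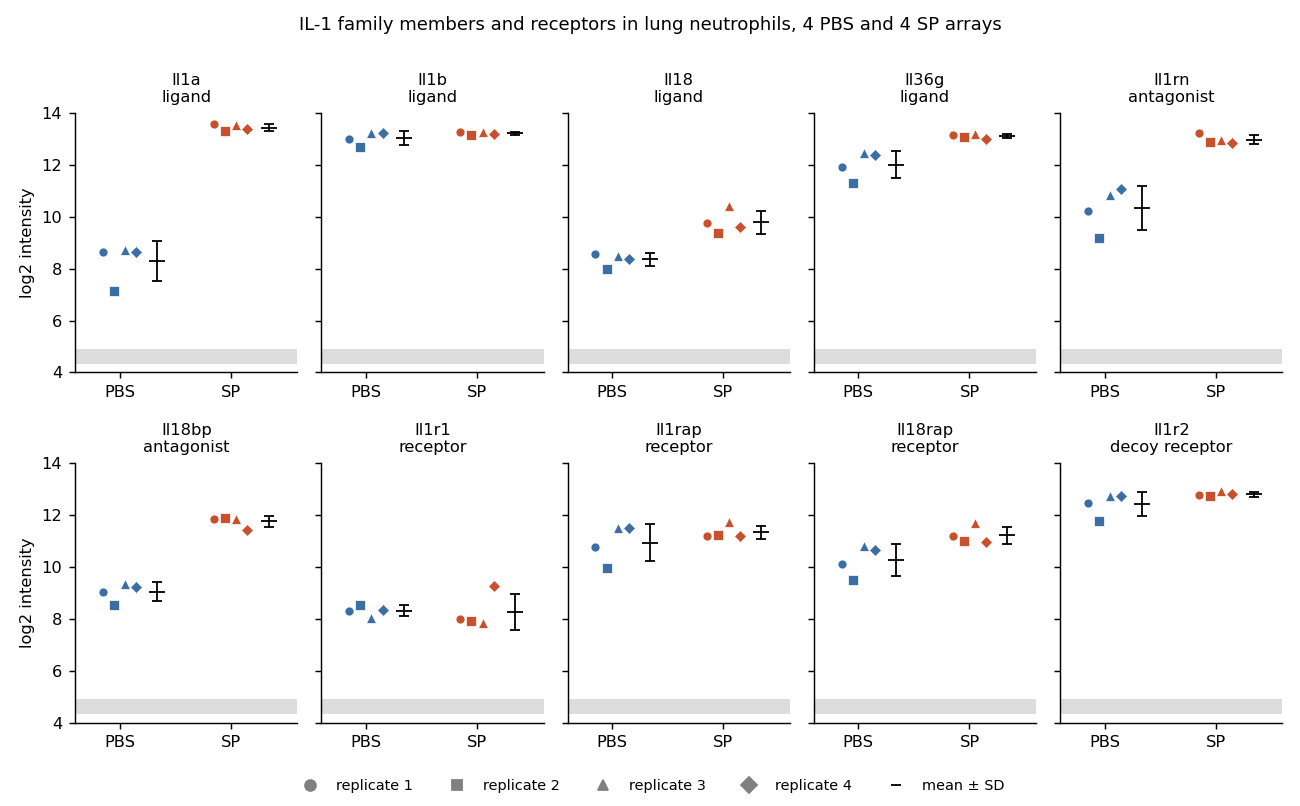
Log2 intensity (y axis) of the 10 genes in the 4 PBS (blue) and 4 SP (red) samples, with a marker shape for each replicate number, mean ± SD beside the points, and a grey band for the range of 3 Y-linked genes taken as background (4.33 to 4.90). Il1a and Il18bp separate widely, Il1b and Il1r2 are bright in both groups, and SP replicate 4 stands above the others for Il1r1.

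Among the ligands, Il1a, Il18 and Il36g rose and Il1b did not pass the test. Il1a encodes IL-1α, which is active without cutting and works as an alarm signal of damaged cells. Its log2 intensities were 8.64, 7.15, 8.73 and 8.63 in PBS replicates 1 to 4, and 13.55, 13.29, 13.51 and 13.36 in SP replicates 1 to 4. All SP values lay above all PBS values, with PBS replicate 2 well under the other PBS samples. The mean went from 8.29 ± 0.76 to 13.43 ± 0.12 (SD, n = 4 each), a difference of 5.14 with a 95% confidence interval of 4.38 to 5.90, or 35.3-fold (limma adjusted p = 1.62e-05). By quantitative PCR of separate samples, the paper reported Il1a higher in SP with a far larger fold than on its arrays.

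Il1b encodes IL-1β, the classical product of the inflammasome. Its values were 12.99, 12.67, 13.22 and 13.21 in PBS and 13.25, 13.15, 13.27 and 13.18 in SP. The groups overlapped, and in either of them the mean of Il1b was higher than that of 99.8% of rows. The difference was 0.19 (95% interval -0.10 to 0.48, limma adjusted p = 0.242), with the upper limit short of 2-fold on these arrays. After centring of each array on its median the difference was 0.47 and passed the threshold (limma adjusted p = 0.0225). It was 0.053 with another quantile normalization (limma adjusted p = 0.718) and 0.069 without PBS replicate 2, the lowest sample (limma adjusted p = 0.538). Whether signals so near the top of the scale are compressed was not tested. The paper reported Il1b significantly higher in SP by quantitative PCR of separate samples, with a larger fold than on its arrays.

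Il18 encodes IL-18, a cytokine known for inducing interferon gamma. It was measured at 8.55, 7.99, 8.49 and 8.38 in PBS and at 9.76, 9.38, 10.39 and 9.60 in SP, without overlap, and SP replicate 3 was the highest. The difference was 1.43 (0.92 to 1.94), a 2.69-fold rise (limma adjusted p = 0.00121).

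Il36g encodes IL-36γ, best known from epithelial cells of skin and lung. It stood at 11.91, 11.29, 12.44 and 12.38 in PBS and at 13.15, 13.08, 13.18 and 13.00 in SP. It was thus bright in all samples, and the SP samples still lay above every PBS sample, within a narrow band. The rise was 1.10 (0.56 to 1.64), or 2.14-fold (limma adjusted p = 0.00632). It was less than 2-fold, though still called, without PBS replicate 2, the lowest sample (0.86, limma adjusted p = 0.00253). The same held with array weights (0.91) and with another quantile normalization (0.94).

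Both antagonists rose. Il1rn, whose product blocks IL1R1, had values of 10.23, 9.16, 10.85 and 11.06 in PBS and 13.20, 12.86, 12.95 and 12.85 in SP. The SP samples lay close together and above all PBS samples, among which replicate 2 was again the lowest. The difference was 2.64 (1.79 to 3.49), or 6.23-fold (limma adjusted p = 0.00076). The row does not separate the secreted form of the antagonist from the forms kept inside cells.

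Il18bp, whose product binds IL-18 in solution, was at 9.04, 8.52, 9.34 and 9.23 in PBS and at 11.85, 11.87, 11.85 and 11.42 in SP. The SP samples again stood clear of PBS, with replicate 4 a little under the other SP samples. The difference of 2.71 (2.28 to 3.15) was 6.56-fold (limma adjusted p = 2.36e-05).

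Of the receptor genes, Il18rap alone passed the test. It encodes the signalling partner chain of the IL-18 receptor, and it was at 10.12, 9.48, 10.82 and 10.67 in PBS and at 11.20, 11.00, 11.68 and 10.97 in SP. The groups did not overlap, although SP replicate 4 lay only just above PBS replicate 3. The rise was 0.94 (0.26 to 1.63), or 1.92-fold (limma adjusted p = 0.0335). The call was lost with another quantile normalization (difference 0.79, limma adjusted p = 0.0554), without PBS replicate 1 (0.0824) or 2 (just over the threshold), without SP replicate 1 (0.0705) and without SP replicate 3 (0.0732), so it is the least firm of the 6.

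Il1r1, the signalling receptor of both IL-1 cytokines, was at 8.31, 8.55, 8.03 and 8.34 in PBS and at 8.01, 7.91, 7.82 and 9.28 in SP. SP replicate 4 was the highest of all 8 samples and the other SP samples were the 3 lowest. The difference was -0.05 (-0.76 to 0.66, limma adjusted p = 0.896), and its sign turned under both other scalings of the arrays. Without SP replicate 4 it was -0.39 and passed the threshold (limma adjusted p = 0.0420), so the result for Il1r1 rests on that sample.

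Il1rap, the accessory chain shared by the receptors for IL-1 and IL-36, was at 10.77, 9.97, 11.50 and 11.48 in PBS and between 11.18 and 11.71 in SP. The groups overlapped, with a difference of 0.40 (-0.35 to 1.16, limma adjusted p = 0.323). Without PBS replicate 2 the difference was 0.084 (limma adjusted p = 0.759). Its row does not separate the membrane form from the soluble form.

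Il1r2, the decoy, was at 12.44, 11.75, 12.73 and 12.71 in PBS and at 12.75, 12.71, 12.93 and 12.81 in SP, so it was bright throughout and the groups met. The difference was 0.39 (-0.08 to 0.87, limma adjusted p = 0.143), and 0.67 after centring, where it passed the threshold (limma adjusted p = 0.0222). With another quantile normalization it was 0.19 (limma adjusted p = 0.385), and without PBS replicate 2, the lowest sample, 0.18 (limma adjusted p = 0.206).

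The spread among samples was part of the pattern. PBS replicate 2 was the lowest PBS sample for 9 of the 10 genes, the exception being Il1r1, where it was the highest, and SP replicate 3 was the highest SP sample for 6 of 10. The SD was larger in PBS than in SP for 8 of the 10 genes, and for 6 of 10 without PBS replicate 2. For Il1a the PBS SD fell from 0.76 to 0.053 when that sample was left out. The smallest SP SDs were those of Il1b (0.057), Il36g (0.081), Il1r2 (0.097) and Il1a (0.12), all near the top of the scale in SP. Whether compression narrowed them was not tested, and the same count over all rows was not made. Without both PBS replicate 2 and SP replicate 3, a choice made after seeing the data, 5 of the 10 genes were called, against 41.7% of all rows.

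**Figure D2:**
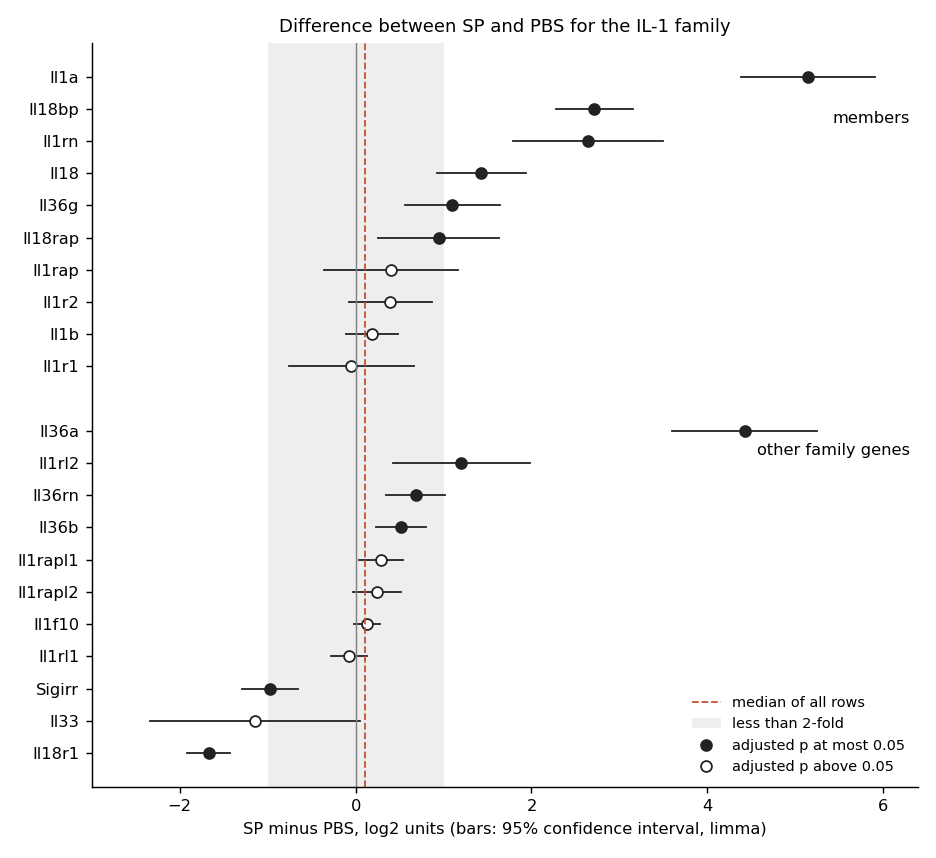
Difference between SP and PBS in log2 units (x axis) for the 10 genes and for the other measured genes of the family, with 95% confidence intervals from limma. Filled points passed an adjusted p of 0.05, the grey field is less than 2-fold, and the dashed line is the median of all rows (0.10). Il1a lies farthest to the right at 5.14 and Il18r1 farthest to the left at -1.67.

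How unequally related genes changed was asked within each array, as a difference of log2 values of a pair of genes, in which any shift of the whole array cancels. Only the change of such a difference is read, since probes of different genes are not on a common scale. The test of each of 6 pairs was an exact permutation, two-sided, in which the 8 samples have 70 arrangements and the smallest possible p is 0.0286. The pairs were chosen with earlier results of these data known, and those among Il1a, Il1b and Il1rn depend on each other. Their p-values thus describe the separation and add no support beyond the differences given above.

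Il1a minus Il1b went from -4.35, -5.52, -4.50 and -4.58 in PBS to 0.30, 0.14, 0.25 and 0.18 in SP. Il1a thus gained 4.95 log2 units on Il1b, or 31.0-fold, with no overlap (exact permutation p = 0.0286, 0.0429 adjusted over the 6 pairs). As Il1b was near the top of the scale in both groups and Il1a in SP, this is a change of array values, and its size may not be that of the transcripts.

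Il1a minus Il1rn went from -1.59, -2.01, -2.12 and -2.43 in PBS to 0.35, 0.43, 0.57 and 0.51 in SP, a gain of 2.50 for the agonist. Il1b minus Il1rn went the other way, from 2.76, 3.50, 2.37 and 2.15 to 0.05, 0.28, 0.32 and 0.33, so Il1b fell by 2.45 relative to the antagonist. The groups did not overlap for either pair, and both had the same p as the first (exact permutation p = 0.0286, adjusted 0.0429). On these arrays the value of the antagonist thus changed less than that of Il1a and more than that of Il1b. Possible compression of Il1b bears on the second pair. Il1a and Il1rn were near the top of the scale in SP too (means 13.43 and 12.97), which bears on both pairs.

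Il18 minus Il18bp was -0.49, -0.52, -0.85 and -0.85 in PBS and -2.09, -2.49, -1.45 and -1.82 in SP. Il18bp rose 2.43-fold more than Il18, a change of -1.28 without overlap (exact permutation p = 0.0286, adjusted 0.0429). For the receptors, Il1r2 minus Il1r1 changed by 0.44 (exact permutation p = 0.371, adjusted 0.446) and Il1rap minus Il1r1 by 0.45 (p = 0.486, exact permutation). The groups overlapped in both, and SP replicate 4 was the lowest SP sample in each. Leaving out 1 sample gave 0.15 to 0.78 for the former and 0.055 to 0.84 for the latter.

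**Figure D3:**
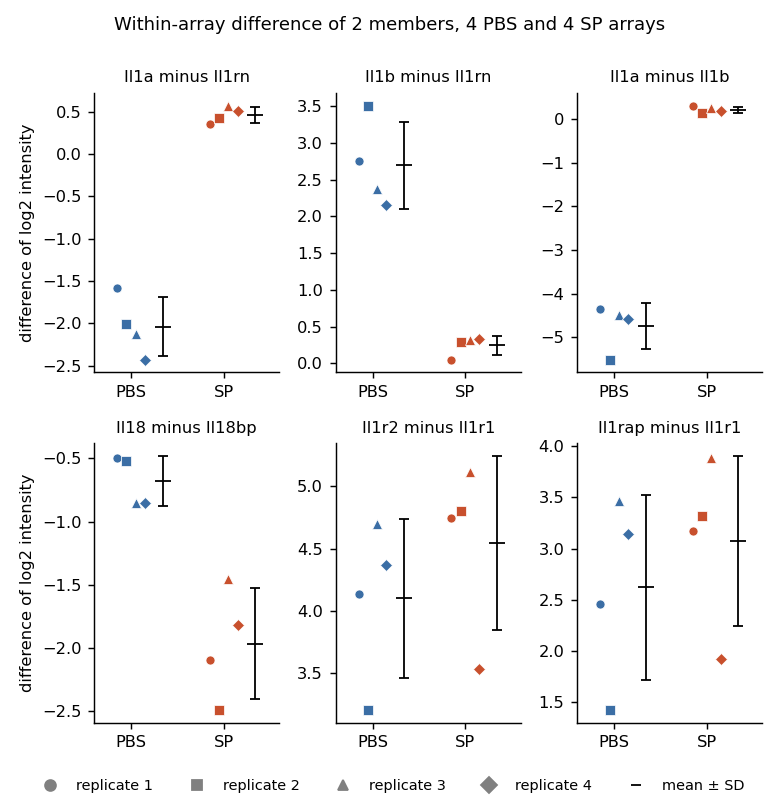
Difference of the log2 intensities of a pair of genes within each array (y axis, its own range in each panel) in PBS (blue) and SP (red), with mean ± SD (n = 4). The groups are apart in the panels for Il1a, Il1b, Il1rn, Il18 and Il18bp, and overlap in the panels that hold Il1r1.

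The other 11 measured genes of the family were divided, with 4 higher and 2 lower in SP and a median difference of 0.24. That is 6 of 11 called, against 44.1% of all rows. At 2-fold, 2 of the 11 were higher and 1 was lower, against 11.3% of all rows that were lower by 2-fold. Il36a, a relative of Il36g that uses the same receptor, was at 4.56, 4.55, 4.80 and 4.55 in PBS, which is within the range of Y-linked genes. In SP it was at 8.86, 8.34, 10.24 and 8.74. All SP samples were far above PBS, and the difference of 4.43 (3.60 to 5.25, limma adjusted p = 4.65e-05) is measured against a level that cannot be told from background.

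Il1rl2, the receptor chain for IL-36 cytokines, was higher by 1.20 (0.43 to 1.98, limma adjusted p = 0.0213), although SP replicate 3, at 7.58, lay below PBS replicate 2, at 7.79. The call was lost with the methods' own test per row (adjusted p = 0.0522), without PBS replicate 1 (limma adjusted p = 0.0508) or 3 (0.0530), or without SP replicate 1 (0.0537) or 2 (0.0547). The antagonist Il36rn and the ligand Il36b were higher by 0.69 and 0.52 (limma adjusted p = 0.0061 and 0.0102), with means of at most 5.38, near the Y-linked range.

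Il18r1, the ligand-binding chain of the IL-18 receptor, was lower where its partner Il18rap was higher, though the pair itself was not tested. It was at 10.82, 11.02, 10.73 and 10.84 in PBS and at 9.12, 8.99, 9.20 and 9.40 in SP. Every SP sample was lower than every PBS sample, and it fell by 1.67 (-1.92 to -1.43), or 3.18-fold (limma adjusted p = 1.55e-05). Sigirr, an inhibitory receptor of the family, fell by 0.98 (limma adjusted p = 0.00077).

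Il33, an alarm cytokine of barrier tissue, was at 9.03, 9.31, 9.11 and 9.17 in PBS and at 8.63, 7.41, 6.64 and 9.35 in SP. SP replicate 4 lay above all PBS samples and the others lay below them, as for Il1r1. The difference was -1.15 (-2.34 to 0.05, limma adjusted p = 0.101), -1.59 without SP replicate 4 (limma adjusted p = 0.0176) and -0.69 without SP replicate 3, the lowest (limma adjusted p = 0.192). The remaining genes Il1rl1, Il1f10, Il1rapl1 and Il1rapl2, with differences of -0.08, 0.13, 0.29 and 0.24, did not pass the test. The PBS and SP means of Il1f10 (4.00 and 4.12), Il1rapl1 (4.31 and 4.59) and Il1rapl2 (4.15 and 4.39) lay within or below the Y-linked range.

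Markers of other cells moved with these results, most of all those of airway epithelium and B cells. Beside the marker counts here and in the next paragraph, 5554 of all 24625 rows were called lower in SP and 5306 higher. Ciliated cell markers averaged 8.98 to 9.84 in PBS and 6.50 to 7.11 in SP (8 of 8 measured lower), club cell markers 12.43 to 13.19 and at most 11.36 (7 of 7), and B cell markers 7.80 to 8.75 and 5.89 to 7.14 (7 of 7). Markers of alveolar type 1 cells averaged 9.90 to 10.80 and 8.47 to 9.51 (4 of 6 lower). The mean of 10 fibroblast markers was 8.31 to 9.06 in PBS, 9.16 in SP replicate 4, and 7.96, 8.16 and 7.39 in SP replicates 1 to 3, with 3 of the 10 genes called lower. Endothelial markers averaged 10.26 to 11.23 in PBS and 8.70 to 9.88 in SP, with 8 of 10 genes lower, and markers of alveolar type 2 cells 11.61 to 12.15 and 9.90 to 11.18, with 7 of 9 lower. In the fibroblast, endothelial, club and alveolar type 1 and type 2 lists SP replicate 4 was the highest SP sample and replicate 3 the lowest, as for Il1r1. The same held for the alveolar macrophage list and the monocyte and macrophage list. In the ciliated and B cell lists SP replicate 2 was the highest. Sftpc, the surfactant gene that defines type 2 cells, was at 13.33 ± 0.08 in PBS and 12.39 ± 0.34 in SP (n = 4 each), so none of the samples was without epithelial transcript. The part of these cells in the results for the 10 genes and their relatives was not tested.

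Transcripts of neutrophils were bright in every sample: 11 neutrophil markers averaged 12.16 to 12.48 in PBS and 11.62 to 12.78 in SP, and 3 were lower in SP by less than 2-fold. Since club and type 2 cell markers were bright too, above all in PBS, the values do not show samples of neutrophils alone. The paper judged purity on stained cytospins of samples from mice with pneumonia, where nearly all cells were neutrophils. The few others mostly looked like alveolar macrophages. It gave no purity for PBS samples, but reported Ly6G messenger RNA as high in every sample. Ly6g was not analysed here, as its accessions in the RefSeq table matched 0 rows. Markers of alveolar macrophages, a known source of IL-1 and IL-18, averaged 9.10 to 9.80 in PBS and 8.17 to 8.83 in SP. Of 10 measured, 5 were lower, 1 was higher and 4 were not called. Markers of monocytes and macrophages averaged 7.93 to 8.81 and 7.75 to 9.28, and of 10 measured 4 were higher and 1 was lower. Adgre1 (F4/80) was higher in SP by 1.27 (limma adjusted p = 0.0223), and the mannose receptor Mrc1, named after its value was seen, fell from a mean of 9.34 to 6.64 (0.00448). SP replicate 3, the highest SP sample for Il18, Il1rap and Il18rap, had the highest mean of neutrophil markers and the lowest of 10 of the 16 cell type lists, and PBS replicate 2, the lowest for 9 genes, had the lowest neutrophil mean of PBS. The latter was the highest PBS sample in 6 of the 16 lists and the lowest in 6. Of the neutrophil markers Camp, Ltf and Ngp, named after their values were seen, ranged most among SP samples. They were at 10.94, 12.10 and 13.34 in SP replicate 3, where Csf3r had its lowest SP value (12.67) and every other marker its highest. The mean of this list thus does not give the share of neutrophils. The part of these cells and samples in the results was not tested.

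**Figure D4:**
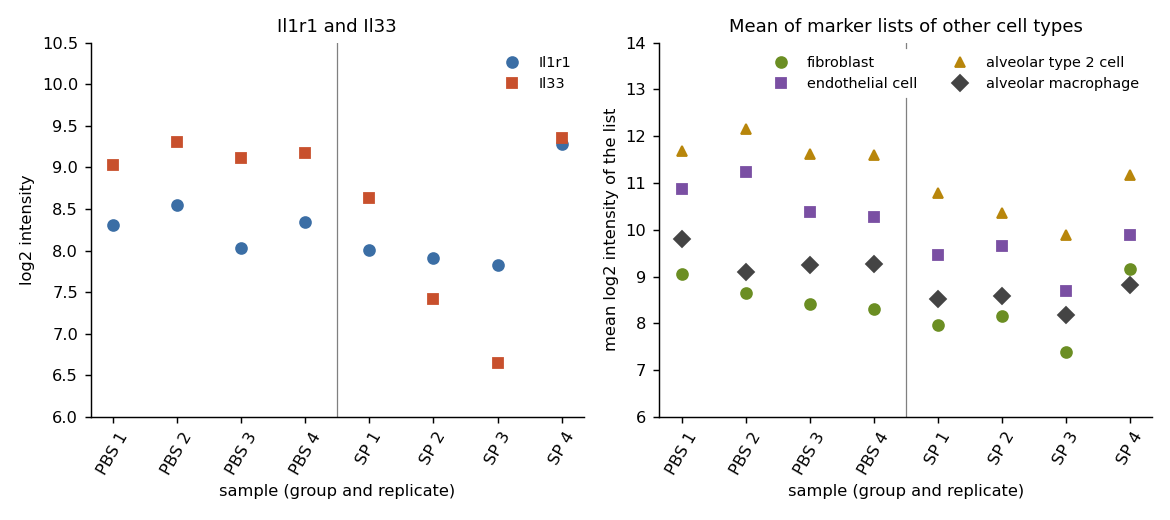
Left, log2 intensity (y axis) of Il1r1 and Il33 in each sample (x axis). Right, mean log2 intensity of marker lists of 4 other cell types in the same samples, where fibroblast markers of SP replicate 4 (9.16) lie above those of the other SP samples, as Il1r1 (9.28) does.

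Genes that act with the family were described by 3 lists: receptor signalling, processing and release of the cytokines, and genes that IL-1 is known to induce. Beside the counts below, 44.1% of all rows were called, 21.5% were called higher in SP and 6.37% higher by 2-fold. Of 17 signalling genes 14 were measured, and 9 were higher and 1 lower (median difference 0.49). The largest rises were Irak3, a kinase-like brake on the pathway, at 2.47 (limma adjusted p = 0.000628), Traf6, the ubiquitin ligase that links the receptor complex to NF-κB, at 2.19 (1.07e-05), and Mapkapk2, a kinase that stabilises cytokine messages, at 1.45 (3.66e-05). Irak4, the first kinase of the complex, fell by 0.66 (limma adjusted p = 0.0298), a call lost after centring, and is named after its value was seen. Ube2v1, the brightest that did not pass, differed by 0.13 (limma adjusted p = 0.167).

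Of 20 genes of processing and release, 12 were higher and 3 lower (median 1.52), 11 of them higher by 2-fold. Mefv, which encodes the inflammasome sensor pyrin, rose by 2.93 (limma adjusted p = 0.000468), the DNA sensor Aim2 by 2.13 (0.00296) and the protease Ctss by 2.09 (5.94e-05). The core of the inflammasome, named after its values were seen, moved the same way, with Casp1 higher by 2.01, Pycard by 1.80, Nlrp3 by 1.65 and the pore protein Gsdmd by 1.66. Gsdme, another pore protein, fell by 1.22 (limma adjusted p = 0.0152). Ctsc, which activates neutrophil proteases, differed by -0.08 (limma adjusted p = 0.682).

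Of 16 genes that respond to IL-1, 13 were higher and none lower, 11 of them by 2-fold (median 2.24). Csf3, the growth factor of neutrophils, rose by 4.83 (limma adjusted p = 3.45e-05), from a PBS mean of 4.45 within the Y-linked range, so its fold is not exact. Il6 rose by 4.13 (6.68e-05) and Ccl2, which attracts monocytes, by 4.03 (0.000111). Lcn2, a siderophore-binding protein of neutrophil granules that was bright in both groups, differed by 0.22 (limma adjusted p = 0.0505). Many of these genes are also known to respond to tumor necrosis factor and to bacterial products.

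**Figure D5:**
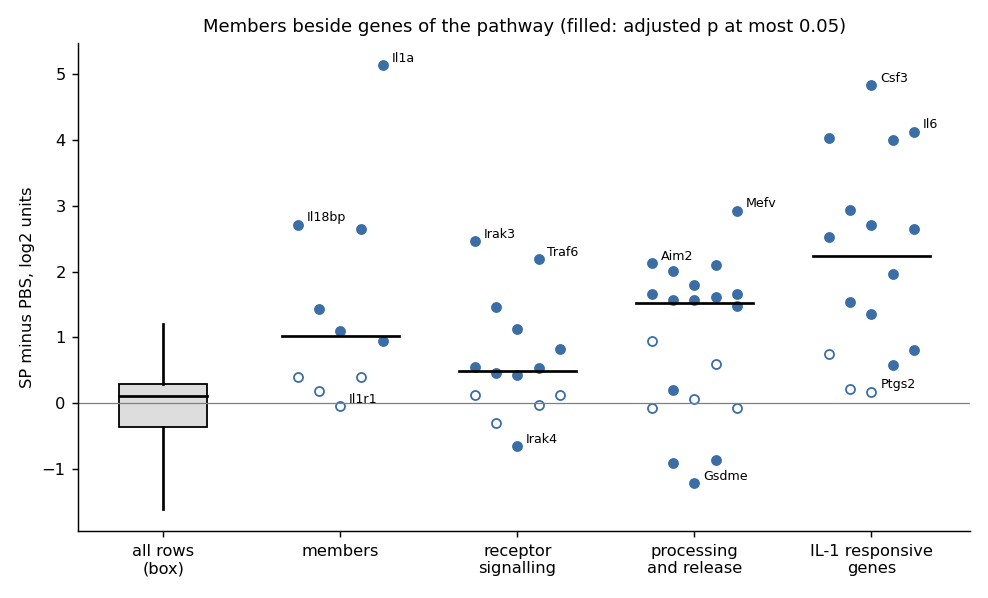
Difference between SP and PBS in log2 units (y axis) for the 10 genes and 3 pathway lists, 1 point per gene, filled where the adjusted p was at most 0.05, with a line at each median. The box on the left holds the 25th to 75th percentile of all rows (-0.36 to 0.29), and its whiskers reach the 5th and 95th (-1.61 and 1.20).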

How the data were processed

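The authors reduced the scanned arrays by robust multi-array averaging, with quantile normalization, and the deposited values are log2 intensities. They are relative within an array: a change in total RNA per cell cannot be read from them. The array medians were 6.06 to 6.20 in PBS and 5.78 to 5.91 in SP. Symbols came from a RefSeq table (GRCm38.p6) for 19915 of 24625 rows. Il36g and its relatives carry older symbols there and were matched by synonym. Groups followed the titles.

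SP and PBS were compared with limma 3.58.1 (R 4.3.3; lmFit, eBayes, two-sided, no covariate), with Benjamini-Hochberg adjustment over all rows, and the code was tested on simulated data. Pairs were compared by exact permutation (Python 3.11.15). The genes and lists were chosen with earlier results of these data known. Named are the 10 genes, all other measured family genes, of each pathway list the 3 largest rises and falls called at 2-fold and the brightest gene not called, and of marker lists genes among the 2 brightest. Alternatives were a robust prior, the methods' t-test (ANOVA of a pair of groups), the replicate block, array weights, 2 other scalings, a filter on dim rows, 1 row per symbol, treat against 1 log2 unit, and leaving out each sample. Protein sequences were not used here.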

Additional observations from a re-analysis of the deposited data

Results flagged for a closer look

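In 20 groups of 4 samples, the 10 genes in PBS and in SP, 4 samples stood apart from the other 3 by Dixon's ratio at its 95% limit, where chance gives about 1 in 20. Il1a was lowest in PBS replicate 2, at 7.15 (ratio 0.938). Il18bp was lowest in SP replicate 4, at 11.42 (0.955). Il1r1 was highest in SP replicate 4, at 9.28 (0.875). That sample had the highest SP mean in 8 of the 16 cell type lists, the fibroblast, endothelial, type 2 cell and both macrophage lists among them. Il1rap was highest in SP replicate 3, at 11.71 (0.891), the sample with the highest mean of neutrophil markers.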

How the results depend on the processing

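Il1a, Il1rn and Il18bp kept their direction and call under all 18 alternatives, with differences of 4.73 to 5.42, 2.25 to 2.92 and 2.51 to 2.99. Il18 and Il36g did so except under treat, which tests against 1 log2 unit. The difference of Il36g ranged from 0.84 to 1.38, so it was not at least 2-fold throughout. Under treat 3 of the 10 genes were called (6 otherwise), 3 at 2-fold (5 otherwise), and 6.38% of all rows, with 2 of the other family genes, 3 signalling, 6 processing and 8 responsive genes, because the test asks for more than a difference from 0. With arrays centred on their medians, 74.1% of rows and 8 of the 10 genes were called, the median of all rows moved from 0.10 to 0.38, and the share of 2-fold calls that were lower went from 63.9% to 44.4% (53.9% with quantile normalization again). Il1rl1, Peli3, Prtn3 and Ctsc changed sign with centring, and Tab1, Peli3, Ube2v1, Ctsg and Ptgs2 with quantile normalization. Il1r1 had the opposite sign with centring (0.23), quantile normalization (0.22), without PBS replicate 2 (0.029), SP replicates 1, 2 and 3 (0.032, 0.063 and 0.093), and without both PBS replicate 2 and SP replicate 3 (0.17). Without these last 2 samples Il1rap was -0.043 (0.084 to 0.59 without 1 sample), and Il1r2 minus Il1r1 was -0.030 with quantile normalization. The causes were not tested. Leaving out 1 sample gave 5 to 7 genes called, against 33.3% to 44.3% of all rows. It gave 4 to 6 genes at 2-fold, and -0.39 to 0.093 for Il1r1. Il18rap was lost under 8 of 18 alternatives, the methods' t-test (0.0703) among them.

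The replicate numbers are shared by both groups, and the labels do not say whether they mean more than a number. Same-numbered samples deviated together with r = 0.016, 0.030, 0.35 and -0.27. Only PBS replicate 3 was most like the SP sample of its own number. With so few samples such values can neither show nor exclude a pairing. With the replicate block 6 of the 10 genes and 40.0% of all rows were called. The changes of the pairs were the same (2.50, -2.45, 4.95 and -1.28), with an exact adjusted p of 0.188 because 16 sign arrangements cannot pass. Limits are the number of arrays, other cells in the samples, and signal at background for Il36a in PBS and for Il1f10, Il1rapl1 and Il1rapl2. Signal near the top of the scale is another, for Il1b, Il36g and Il1r2, and in SP for Il1a and Il1rn.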

Other observations

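Patterns most like those of 4 of the genes were looked up over the 8 samples by Pearson's r, as a description without a test, since all values share the difference between groups. Il1a was most like Ifit3 (r = 0.9997), Parp9 (0.998) and Aoah (0.998). Il18 was most like Bco2 (0.995), Gm14461 (0.995) and Pex13 (0.993), and Il1r2 like Themis2 (0.996), Cd80 (0.994) and C5ar1 (0.993). The nearest to Il1b were Krt34 (0.998), Csf2ra (0.990) and 5430427O19Rik (0.989). Likeness was common for Il1a, with 1013 genes above 0.95, and rarer for Il1b, with 81.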
